A study of Mus musculus with 6 samples.

Results

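The genes described here encode transcription factors that set regional and lineage identity in the nervous system, the pituitary, muscle and mesenchyme. They were found by pooling the names in both of the authors' lists, down-regulated (2741 genes) and up-regulated (1137 genes), and keeping the symbols of homeobox, paired box, bHLH, T-box, Sox, forkhead, zinc finger and related families, without Pou1f1 and Pou4f3. The search gave 54 of the 41096 genes measured, 44 of them on the down-regulated list and 10 on the up-regulated list. Because these genes were chosen by their measured difference between MSC treated and sound trauma cochleae, that difference is given for them as a description and is not tested. The symbols also brought in Lhx1os and Foxl2os, which are long non-coding RNAs named after a neighbouring factor, and Foxk2, a widely expressed forkhead factor.

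Left cochleae came from mice whose strain the labels give as C56Bl/6 and the methods as female C57BL/6 aged 4 weeks. Their total RNA was sequenced, and all 6 animals had been exposed to 16 kHz sound for 4 h. The abstract calls this sound narrow band and the methods a pure tone. Specimens 6, 8 and 10 form the sound trauma group, described in the labels as noise trauma alone and in the methods as given artificial perilymph. Specimens 13, 18 and 20 form the MSC treated group, which received 1 µl of human mesenchymal stromal cells from Wharton's jelly, the connective tissue of the umbilical cord, through the posterior semicircular canal 48 h after the sound. RNA was taken 2 days after treatment by the labels and 72 h after it by the methods, which give 5 animals per group where 3 libraries per group were analysed here. Nothing marks the libraries as other than 1 per specimen, so the spread between them holds animal, dissection and library differences together.

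Transcription factors of these families bind DNA and switch on the genes of a position or a cell type, and many stay on in the adult cells whose fate they set. En2, Pax6 and the Zic factors mark cerebellum and hindbrain, Olig1 and Olig2 mark cells that make central myelin, Six6, Pitx1 and Tbx19 mark the pituitary and its parent tissue, and Tbx15 is used in skeletal muscle and mesenchyme. In the inner ear Sox2 and Sox10 act in supporting cells and glia, and Pou3f3, Tbx2 and Tbx3 act in the developing labyrinth.

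Values are scaled counts, which are the reads on a gene multiplied by the authors' single factor for that library, and levels are not compared between genes because they are not divided by gene length. Each library held between 9170390 and 11030863 reads on genes, and 1 read was worth between 0.893 and 1.16 scaled counts. A library with 3 reads or fewer on a gene, a scaled count of at most 2.68 to 3.48 depending on the library, is described as at the floor. Differences between groups are MSC treated minus sound trauma on log2(scaled count + 1), with a standard error (SE) from n = 3 libraries per group, and they understate the change of genes with few reads. Over the whole table of 15970 tested genes limma called 0 genes at an adjusted p under 0.05, a background of 0%, with an unadjusted p under 0.05 for 107 genes that were lower and 269 that were higher. Voom weights in limma, DESeq2 and edgeR's quasi-likelihood test also called 0 genes, and at the unadjusted threshold they had 98, 550 and 266 lower and 252, 249 and 259 higher genes.

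Specimens 6 and 8 stood apart from the other 4 libraries. Across the 44 members of the down-regulated list, the median level was 1.84 above the MSC treated mean in specimen 6 and 2.36 above it in specimen 8 on the log2 scale. Specimen 10, the remaining sound trauma library, was at -0.14 and fell among the MSC treated libraries, which were at -0.25, 0.16 and -0.10 in specimens 13, 18 and 20. For the 15970 genes the same medians lay between -0.04 and 0.02. The highest library of a down-regulated member was specimen 8 for 30 genes and specimen 6 for 14, so each of the 44 peaked in 1 of these 2 animals. Over the 15970 tested genes specimen 8 was highest for 4500 and specimen 6 for 3377, and choosing genes that were higher after sound trauma favors a peak in a sound trauma library. Specimens 6 and 8 both lay above all other 4 libraries for 28 genes. Specimen 10 was within the MSC treated range for 32 genes, below it for 9 and above it for 3. These counts include genes at the floor, where a gap can be the scaling factor alone. They were not made over all tested genes, and the choice of members also favors the 28.

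**Figure D1:**
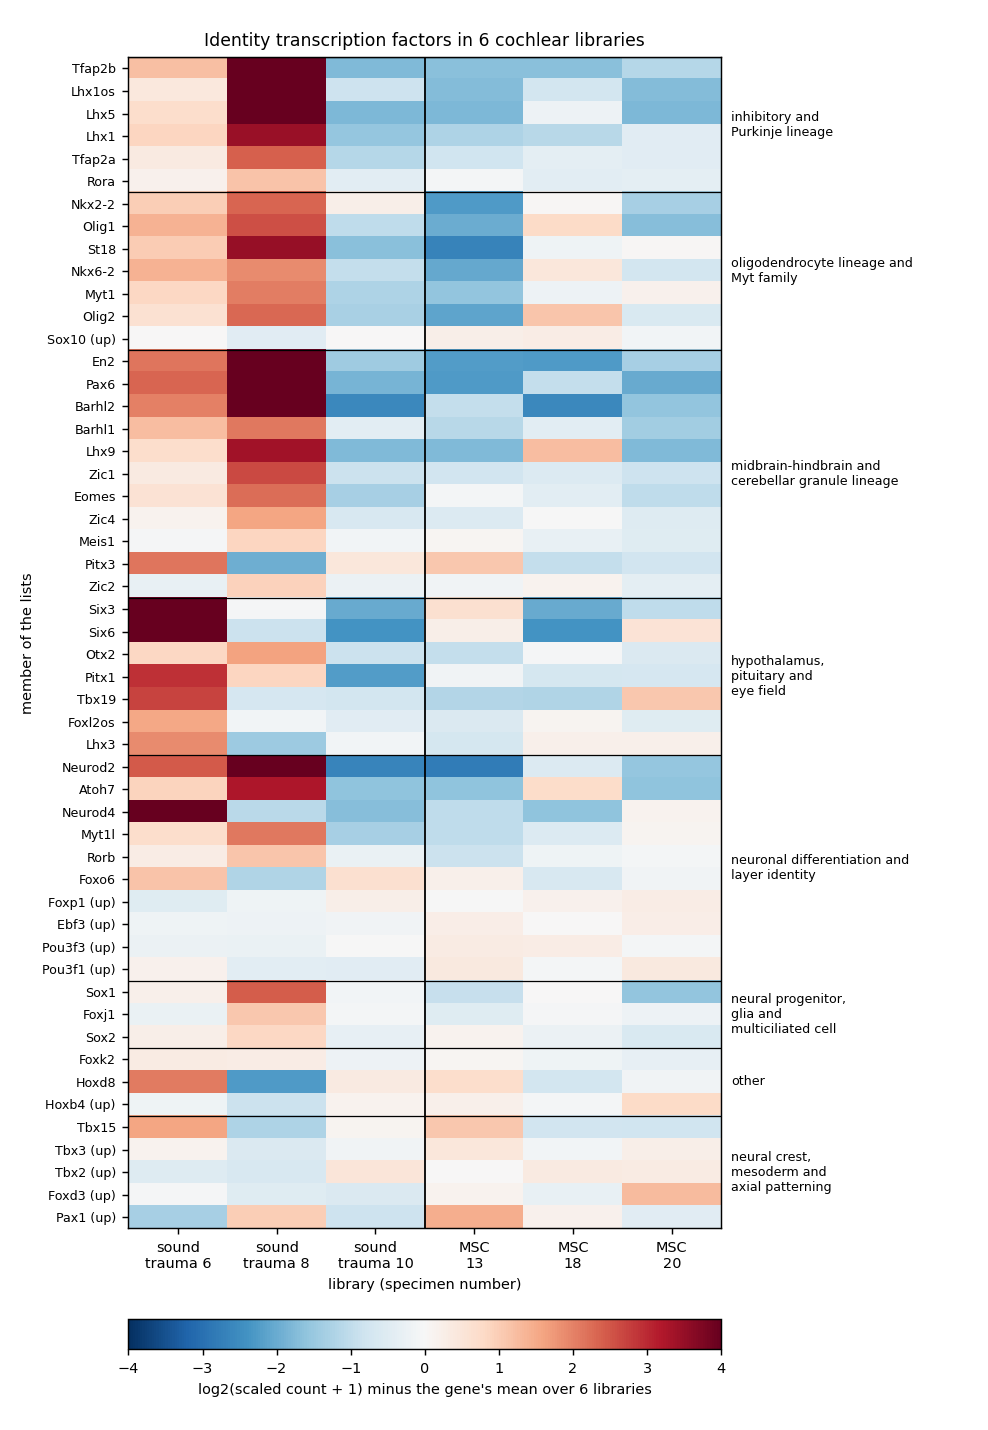
Levels of 52 members in the 6 libraries, as log2(scaled count + 1) minus the gene's mean over the libraries (color, capped at -4 and 4), with sound trauma specimens left of the vertical line and MSC treated specimens right of it. Rows are grouped by known role and members of the up-regulated list carry (up). Specimen 8 holds the highest value for 30 of these genes and specimen 6 for 12, and specimen 10 looks like the MSC treated libraries in most rows.

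The median difference of the 44 genes was -1.08, with a range from -3.87 to -0.12. It was -0.93 without specimen 6, when 33 of the 44 stayed lower in the MSC treated group, and -0.86 without specimen 8, when 43 did. Without specimen 10 it was -2.06. The groups did not overlap for 2 down-regulated members, Nkx2-2 among them, and for 1 up-regulated member, Ebf3. Over all tested genes 2.92% did not overlap with lower values in MSC treated animals and 4.25% with higher values, and the members' counts follow from how they were chosen. A filter on low counts was passed by 41 of the 54 members, all 10 of the up-regulated list among them, and 15 members had at least 1 library at the floor. In RNA from a whole dissected cochlea a lower level can come from fewer cells of a type, from a difference in dissection or from less RNA per cell. These cannot be told apart.

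Members did not all peak in the same animal, and promoter sequence from RefSeq (build GRCm38.p6) is shown for 1 gene of each of 4 patterns over the libraries. Each window runs from 250 bases before to 50 bases from the start of the gene on, 300 in all, and windows were found for 39 of the 54 members. Lhx1 peaked in specimen 8 (chr11:84525485-84525784, minus strand), Six6 in specimen 6 with traces in specimens 13 and 20 (chr12:72939632-72939931, plus strand), Pitx3 in specimen 6 with its lowest level in specimen 8 (chr19:46148276-46148575, minus strand), and Olig2 in specimen 8 with a further high level in specimen 18 (chr16:91225300-91225599, plus strand). Capitals mark the CCAAT box, a common promoter element, on either strand, where it reads as ATTGG on the other strand.
Lhx1: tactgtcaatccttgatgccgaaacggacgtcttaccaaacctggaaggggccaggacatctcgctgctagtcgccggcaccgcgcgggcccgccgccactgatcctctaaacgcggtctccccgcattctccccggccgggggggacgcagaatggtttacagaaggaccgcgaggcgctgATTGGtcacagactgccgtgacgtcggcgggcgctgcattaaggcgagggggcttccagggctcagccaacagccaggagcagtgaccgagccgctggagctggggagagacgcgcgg
Six6: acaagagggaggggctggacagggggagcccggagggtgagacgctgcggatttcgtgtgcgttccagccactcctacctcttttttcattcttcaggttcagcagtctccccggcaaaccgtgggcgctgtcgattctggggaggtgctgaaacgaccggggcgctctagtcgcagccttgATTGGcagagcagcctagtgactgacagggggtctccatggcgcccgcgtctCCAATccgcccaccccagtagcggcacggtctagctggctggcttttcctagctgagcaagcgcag
Pitx3: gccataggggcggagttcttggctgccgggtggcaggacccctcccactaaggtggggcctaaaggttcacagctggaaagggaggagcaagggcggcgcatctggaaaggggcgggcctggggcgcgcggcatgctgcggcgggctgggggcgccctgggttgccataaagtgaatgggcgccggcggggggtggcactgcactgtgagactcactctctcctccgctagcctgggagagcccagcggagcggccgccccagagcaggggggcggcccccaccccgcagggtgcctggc
Olig2: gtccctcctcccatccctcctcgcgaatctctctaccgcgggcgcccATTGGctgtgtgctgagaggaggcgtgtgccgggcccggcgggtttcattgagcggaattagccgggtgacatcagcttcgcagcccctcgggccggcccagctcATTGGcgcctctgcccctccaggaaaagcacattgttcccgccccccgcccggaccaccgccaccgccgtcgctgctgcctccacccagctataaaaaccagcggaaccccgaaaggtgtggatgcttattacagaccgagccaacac
The Lhx1 window held 1 CCAAT box, those of Six6 and Olig2 held 2 each, and no match of these letters lay in the Pitx3 window. Among the 39 members with a window 23 held the box (59.0%), against 10248 of all 27025 windows (37.9%). Members' windows had a median GC content of 59.7% and 16 CpG dinucleotides, against 52.7% and 7 over all windows. The E-box CANNTG, bound by bHLH factors such as Neurod2 and Olig2, was in 53.8% of members' windows and 72.1% of all windows. TAATTA, a core read by many homeodomains, was in 10.3% and 5.31%, and ACAAAG, a core read by Sox factors, in 10.3% and 18.7%. Both strands were searched, and a CCAAT box followed by TG also contains an E-box. These shares describe the sequences and were not tested.

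Of 23 genes listed for the midbrain, hindbrain and cerebellar granule lineage 11 were members, all on the down-regulated list, with a median difference of -1.42 that was -0.46 without specimen 8 and -2.21 without specimen 10. Specimen 8 was the highest library for 10 of them. In every sentence of values the sound trauma specimens 6, 8 and 10 come first and the MSC treated specimens 13, 18 and 20 follow. En2, the homeodomain factor of the midbrain-hindbrain boundary, measured 84.6, 660 and 6.25 scaled counts after sound trauma and 3.12, 3.06 and 6.79 after MSC treatment, a difference of -3.87 (SE 1.91). Specimens 6 and 8 were far above the rest. Specimens 10 and 20 had 7 reads each, so their gap is the scaling factor alone, and the groups overlapped on scaled counts. Pax6, needed in granule cell precursors and in the eye, was at 98.5, 540.2 and 4.47 against 3.12, 9.19 and 3.88, a difference of -3.50 (SE 1.98), and again only specimens 6 and 8 lay above the MSC treated range. Specimen 8 was 97.1-fold above the highest MSC treated library for En2 and 58.8-fold for Pax6, folds that divide by few reads. In specimens 13, 18 and 20 En2 had 3, 3 and 7 reads and Pax6 had 3, 9 and 4. Some of these libraries were at the floor, and neither gene passed the filter on low counts.

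Barhl1 and Barhl2 encode Bar-class homeodomain factors of granule neurons and dorsal interneurons, and Barhl1 is also known from hair cells. Barhl1 was at 46.4, 86.0 and 14.3 against 8.31, 14.3 and 6.79, a difference of -1.94 (SE 0.79), with specimens 10 and 18 level. Barhl2 was at 23.2, 294 and 0 against 2.08, 0 and 0.971, so that specimen 10 and all MSC treated libraries were at the floor. Lhx9, a LIM homeodomain factor of the dorsal neural tube, was at 4.64, 34.4 and 0 against 0, 7.15 and 0, and MSC treated specimen 18 was above sound trauma specimen 6. No fold is given for Barhl2 and Lhx9, since most of their low libraries were at the floor.

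The Zic genes encode zinc finger factors of the dorsal neural tube, cerebellum and meninges, and here they had reads in every library. Zic1 was at 905, 4342 and 387 against 411, 481 and 398, a difference of -1.42 (SE 1.02). Zic4, which overlaps Zic1 in the RefSeq annotation so that reads may have been divided between them, was at 108, 296 and 62.5 against 66.5, 97.0 and 67.9, a difference of -0.72 (SE 0.68). Zic2 was at 970.0, 2258 and 1021 against 1097, 1314 and 911, a difference of -0.26 (SE 0.42) that became 0.14 without specimen 8. In all 3 genes specimen 8 was highest, and for Zic2 the other sound trauma libraries lay within the MSC treated range. The difference of Zic1 was -0.46 without specimen 8 and -2.21 without specimen 10, and that of Zic4 was -0.11 and -1.22.

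Eomes, a T-box factor of cerebellar unipolar brush cells and cortical progenitors, was at 46.4, 147 and 11.6 against 29.1, 22.5 and 14.6, a difference of -0.96 without specimen 6 and -0.14 without specimen 8. Meis1, a cofactor of Hox and Pax proteins found in granule cells, was at 209, 387 and 199 against 223, 173 and 152, a difference of -0.48 (SE 0.35). In both genes specimen 8 was highest and the groups overlapped. Pitx3, a factor of midbrain dopamine neurons, lens and muscle, was the exception of this list, with specimen 6 highest and specimen 8 lowest, and is described with the genes ordered like muscle markers.

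Markers have a name in the files only where they are on the authors' lists, so every marker list given here was selected on the same difference as the members, and like values in the same group are in part fixed by that selection. For cerebellar granule cells the 7 of 8 listed markers that have a name, among them the GABA receptor subunit gene Gabra6 and the cerebellin gene Cbln3, summed to 3687, 21587 and 1064 scaled counts in sound trauma and 1094, 1992 and 1095 in MSC treated libraries. All 7 were highest in specimen 8 and none was at 0 in any library. Gabra6 was at 207 and 1431 in specimens 6 and 8 and between 0.893 and 6.13 in the other 4. Whether granule cell RNA carries the values of En2, Pax6 and the other factors was not tested.

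The inhibitory and Purkinje lineage list of 17 genes had 7 members, all lower in MSC treated cochleae, with a median difference of -1.86 that was -0.71 without specimen 8 and -3.10 without specimen 10. Specimens 6 and 8 were above the other 4 libraries for all 7, though for Lhx1os specimen 6 was itself at the floor with 3 reads. Lhx1 and Lhx5 encode LIM homeodomain factors of Purkinje cells. Lhx1 was at 47.5, 293 and 8.04 against 10.4, 11.2 and 18.4, a difference of -1.86 (SE 1.47), and specimen 10 was below all MSC treated libraries. Lhx5 was at 4.64, 104 and 0 against 0, 2.04 and 0, and the non-coding RNA Lhx1os was at 3.48, 82.2 and 0.893 against 0, 1.02 and 0. In both, all MSC treated libraries and specimen 10 were at the floor. The RefSeq windows of Lhx1 and Lhx1os share 225 bases on opposite strands, with 126 bases between their starts, and whether the counting used strand is not given in the sources used here.

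Tfap2a and Tfap2b encode AP-2 factors of cerebellar inhibitory neurons and neural crest. Tfap2a was at 19.7, 83.2 and 6.25 against 8.31, 11.2 and 10.7, a difference of -1.08 (SE 1.03). Tfap2b was at 13.9, 214 and 0.893 against 1.04, 1.02 and 1.94, with every MSC treated library and specimen 10 at the floor. Specimen 8 was highest and specimen 6 second for both genes.

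Rora, an orphan nuclear receptor that Purkinje cells need to mature, was at 644, 1273 and 428 against 536, 428 and 435, a difference of -0.60 (SE 0.47), and specimen 10 lay level with specimen 18. The 8 of 9 named Purkinje markers summed to 30869, 19251 and 11873 against 21756, 6960 and 5796, most of it from parvalbumin (Pvalb), which fast muscle also expresses, in every library but specimen 8. Without Pvalb, a choice made after its values were seen, the other 7 summed to 2488, 16213 and 2228 against 2207, 2710 and 2167. None of the 8 was at 0 in a library, and the part of Purkinje cell RNA in the values of these factors was not tested.

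Neuronal differentiation and layer identity held 10 of 25 listed genes, 6 lower and 4 higher, with a median difference of -0.57 that became 0.10 without specimen 6 and -0.28 without specimen 8. Neurod2, a bHLH factor of maturing excitatory neurons, was at 154, 996 and 3.57 against 3.12, 18.4 and 8.74, a difference of -3.28 (SE 2.37). Myt1l, a zinc finger factor that keeps neurons neuronal, was at 256, 678 and 62.5 against 76.9, 107 and 169, a difference of -0.98 (SE 1.04). Both were highest in specimen 8 and second in specimen 6, and specimen 10 was under the highest MSC treated library for Neurod2 and under all 3 for Myt1l. Rorb, a nuclear receptor of cortical layer neurons and retina, was at 70.7, 125 and 48.2 against 31.2, 51.1 and 55.3, a difference of -0.75 (SE 0.47), with specimen 10 inside the MSC treated range. Atoh7, a retinal bHLH factor, ranged from 0 to 27.7 scaled counts and was highest in specimen 8. Neurod4 and Foxo6 peaked in specimen 6 and are given below, and Foxp1, Ebf3, Pou3f1 and Pou3f3 belong to the up-regulated list.

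The oligodendrocyte lineage and Myt family list gave 7 of 10 genes, of which 6 were lower and Sox10 higher, with a median difference of -1.55. The median was -0.61 without specimen 8, -0.93 without specimen 13 and -2.42 without specimen 10. Specimen 18 was the highest MSC treated library for 5 of the 7, and specimen 13 was the lowest of all 6 libraries for 6. Olig1 and Olig2 encode the bHLH factors that specify oligodendrocytes. Olig1 was at 232, 531 and 42.9 against 21.8, 150.1 and 26.2, a difference of -1.95 (SE 1.37). Olig2 was at 32.4, 107 and 8.04 against 4.16, 47.0 and 13.6, a difference of -1.06 (SE 1.39), so that MSC treated specimen 18 exceeded sound trauma specimens 6 and 10. The 2 genes are neighbours in RefSeq with 0 protein-coding genes between them.

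Nkx6-2, a homeodomain factor of mature oligodendrocytes, was at 54.5, 77.4 and 9.83 against 4.16, 27.6 and 11.6, a difference of -1.55 (SE 1.13). Nkx2-2, a homeodomain factor of oligodendrocyte precursors, was at 18.5, 48.8 and 10.7 against 1.04, 9.19 and 2.91, a difference of -2.38 (SE 0.91). Its groups did not overlap, although specimens 10 and 18 were close. With 1 and 3 reads, specimens 13 and 20 were at the floor. Myt1 and St18 encode paralogous zinc finger factors of neural and oligodendrocyte precursors. Myt1 was at 115, 269 and 26.8 against 20.8, 55.1 and 71.8, a difference of -1.09 (SE 1.09). St18 was at 78.8, 442 and 11.6 against 5.19, 34.7 and 39.8, a difference of -1.88 (SE 1.72), and for both genes specimen 20 was the highest MSC treated library.

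Sox10, which acts in oligodendrocytes, Schwann cells, neural crest and otic epithelium, went the other way. It was at 832, 600.4 and 838 against 978, 1010.1 and 773, a difference of 0.29 (SE 0.20), with its lowest value in specimen 8, where Olig1 and Olig2 were highest. The 7 of 10 named central oligodendrocyte markers, all on the down-regulated list, summed to 23444, 32677 and 10128 against 9204, 23088 and 11835. Specimens 6, 8 and 18 were thus the 3 high libraries of the markers as they were of Olig1, Olig2 and Nkx6-2. None of the 7 markers was at 0 in any library, and the share of central myelin in the values of the factors was not tested.

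The hypothalamus, pituitary and eye field list of 16 genes had 8 members, all lower in MSC treated cochleae at a median of -0.94, and specimen 6 was the top library for 7. Without specimen 10 the median was -1.59. Without specimen 6 it was 0.25 and only 2 of the 8, Otx2 and Foxl2os, were lower. Six6 and Six3 encode paralogous homeodomain factors of the eye field, hypothalamus and pituitary. Six6 was at 155, 1.91 and 0 against 5.19, 0 and 6.79, and Six3 at 86.9, 2.87 and 0 against 5.19, 0 and 0.971. For Six6 the traces above the floor outside specimen 6 were in specimens 13 and 20, and for Six3 in specimen 13. The difference was -1.08 (SE 2.41) for Six6 and became 1.09 without specimen 6.

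Neurod4, a bHLH factor of neuronal and pituitary precursors from the neuronal differentiation list, was at 243, 1.91 and 0.893 against 2.08, 1.02 and 5.82. Specimen 20 was the only other library above the floor, with 6 reads, and specimen 6 was 41.8-fold above it. Neurod4 did not pass the filter on low counts. Tbx19, the T-box factor of pituitary corticotrophs, ranged from 1.02 to 29.0, with specimen 6 highest and specimen 20 second at 8.74. Pitx1, a homeodomain factor of the pituitary primordium and hindlimb, was at 162, 38.2 and 3.57 against 18.7, 12.3 and 12.6, a difference of -1.01 (SE 1.51) that became 0.19 without specimen 6. For Pitx1 specimen 8 was second, and specimen 10 was below all MSC treated libraries.

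Anterior pituitary markers had the same high library. The 10 of 11 named, all down-regulated and led by prolactin (Prl) and growth hormone (Gh), summed to 297695, 3651 and 1256 against 11741, 1281 and 22376, so the order after specimen 6 was specimen 20, specimen 13 and specimen 8. Of the 10, 2 were at 0 in specimen 8, 4 in specimen 10, 2 in specimen 13 and 2 in specimen 18, and none in specimens 6 and 20. Whether pituitary RNA carries Six6, Six3, Neurod4 and Tbx19 was not tested.

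Otx2, a homeodomain factor of forebrain, retina and choroid plexus, was at 62.6, 109 and 18.8 against 17.7, 33.7 and 23.3, a difference of -1.04 (SE 0.78), with specimens 6 and 8 above the rest. Named choroid plexus markers, 5 of 7 and led by transthyretin (Ttr), summed to 8183, 5473 and 336 against 288, 388 and 278, and none was at 0. Their part in the Otx2 value was not tested. Foxl2os, an RNA antisense to the gene for the forkhead factor Foxl2, was at 34.8, 10.5 and 8.04 against 7.27, 12.3 and 7.77. Its difference was -0.65 (SE 0.65) and only -0.05 without specimen 6, the 1 library above the MSC treated range. Lhx3, a LIM factor of pituitary, motor neurons and hair cells, was at 124, 11.5 and 30.4 against 19.7, 37.8 and 37.9, a difference of -0.22 (SE 1.01) that became 0.67 without specimen 6.

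**Figure D2:**
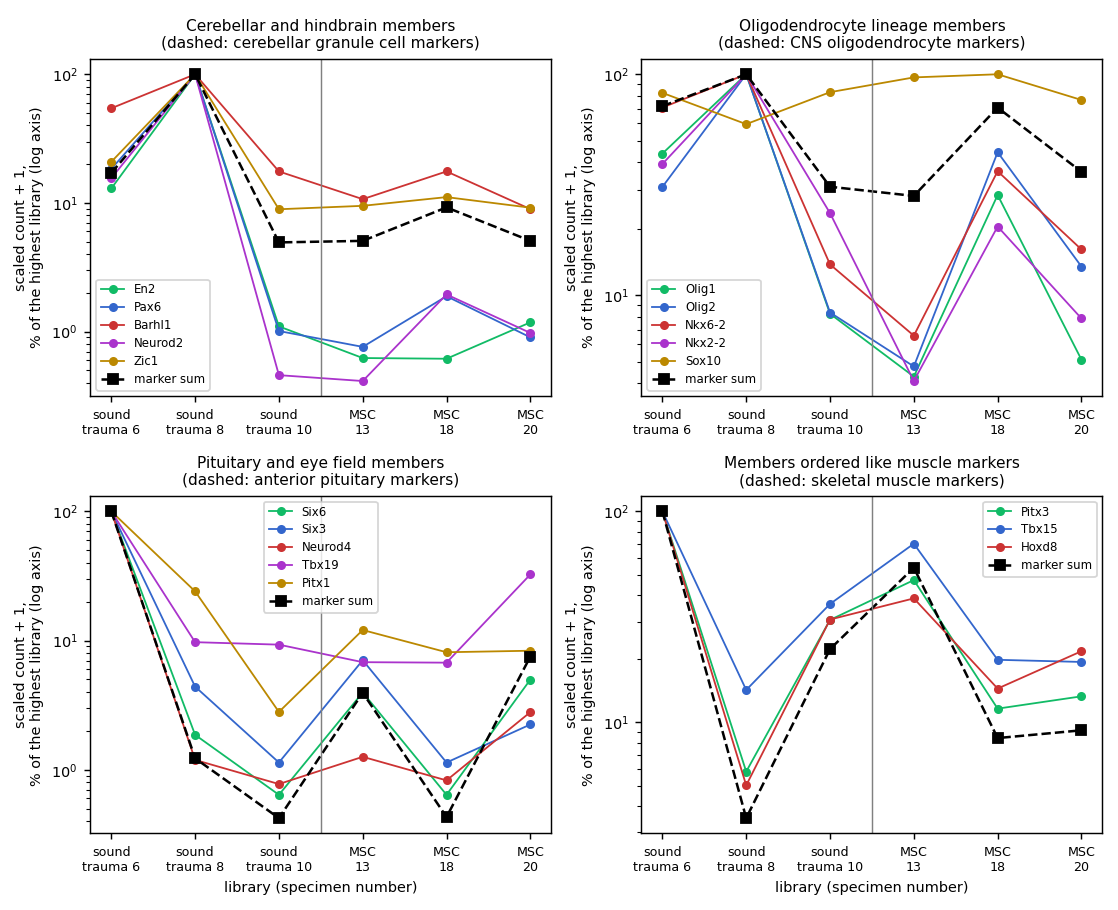
Members (colored lines) and the summed marker list named in each panel (dashed black) across the 6 libraries, each as scaled count + 1 in percent of its highest library on a log axis. Cerebellar members and granule cell markers peak in specimen 8, Olig1, Olig2 and Nkx6-2 are highest in specimens 6, 8 and 18, pituitary members peak in specimen 6, and Pitx3, Tbx15 and Hoxd8 peak in specimen 6 with specimen 13 second and specimen 8 lowest.

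A set of 6 members, drawn from 4 role lists and from outside them, was highest in specimen 6 and lowest in specimen 8. Its median level from the MSC treated mean was 2.06, -1.53 and 0.46 in the sound trauma libraries and 0.98, -0.63 and -0.10 in the MSC treated ones, in the order given above. The median difference was -0.35 with every library, 0.60 without specimen 6 and -1.18 without specimen 8, and these signs follow from how the set was picked.

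Pitx3 was at 131, 6.69 and 39.3 against 61.3, 14.3 and 16.5, a difference of -0.43 (SE 1.35). Tbx15, a T-box factor of mesenchyme and glycolytic muscle fibers, was at 2252, 319 and 818 against 1581, 444 and 434, a difference of -0.32 (SE 1.02). For both genes the order was specimen 6, then 13, then 10. Hoxd8, which patterns the trunk, kept this order at 133, 5.74 and 40.2 against 50.9, 18.4 and 28.2, a difference of -0.12 (SE 1.32). Foxo6, a forkhead factor best known from brain, was at 145, 27.7 and 103 against 74.8, 41.9 and 59.2, with specimen 10 second, a difference of -0.38 (SE 0.75). Lhx3, given above, was also of this kind, with specimens 20 and 18 next after specimen 6.

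Skeletal muscle markers had the same first 3 libraries and the same lowest library as Pitx3, Tbx15 and Hoxd8. The 6 of 9 named, led by skeletal actin (Acta1) and a fast myosin (Myh4), summed to 596222, 20908 and 132442 against 322284, 50123 and 54553, from specimen 6 through 13 and 10 to 8. None was at 0 in a library, and the part of muscle RNA in these factors was not tested.

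**Figure D3:**
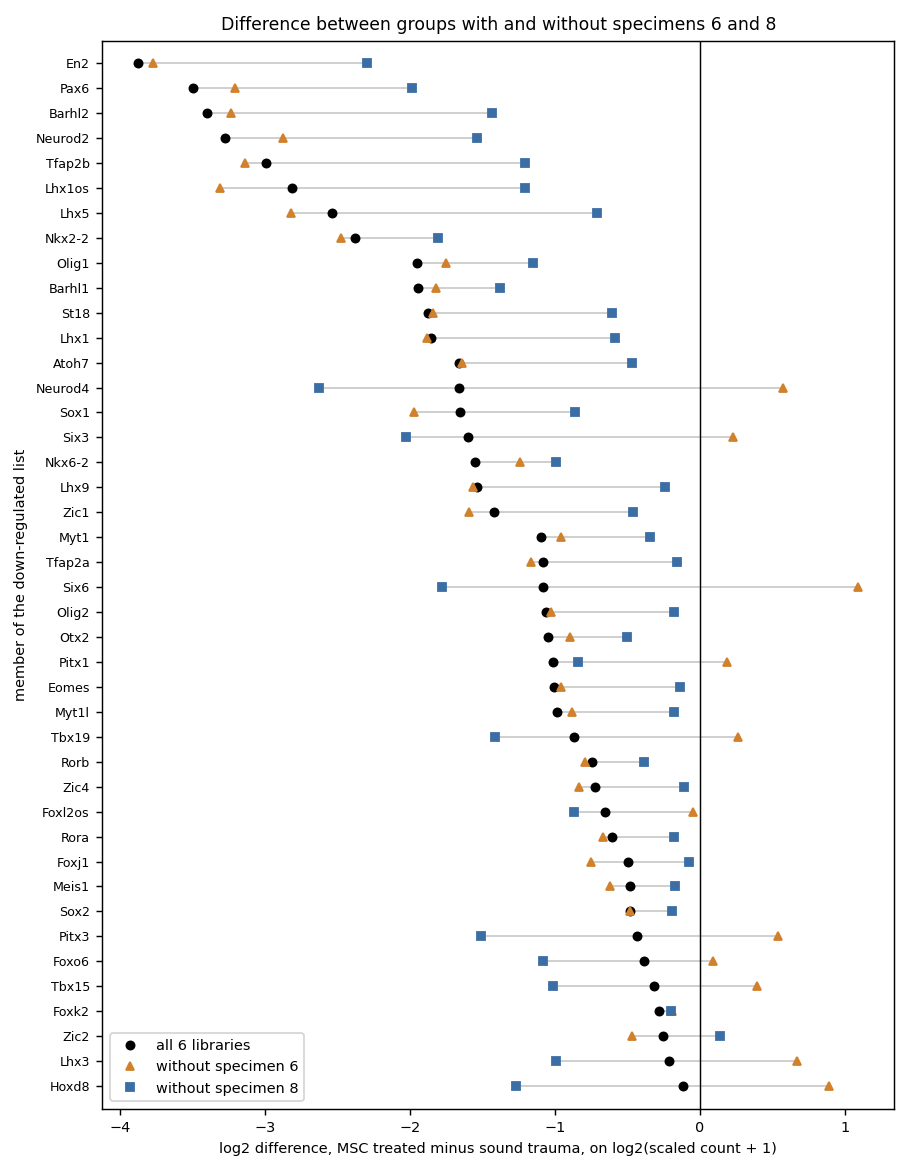
Difference between groups for 42 members of the down-regulated list, as MSC treated minus sound trauma on log2(scaled count + 1), with all 6 libraries (circles), without specimen 6 (triangles) and without specimen 8 (squares). Without specimen 6, 10 of these genes cross to the right of 0, and without specimen 8 only Zic2 does, while the genes at the top move toward 0 without specimen 8.

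The neural progenitor, glia and multiciliated cell list of 15 genes gave 3 members, each highest in specimen 8. Their median difference of -0.49 was -0.19 without specimen 8 and -0.77 without specimen 10. Sox1, a factor of neural progenitors, was at 32.4, 155 and 25.9 against 14.5, 28.6 and 8.74, a difference of -1.66 (SE 0.92), in which specimen 10 lay within the MSC treated range. Sox2, which neural progenitors and cochlear supporting cells share, was at 124, 185 and 83.1 against 115, 88.9 and 67.9, a difference of -0.48 (SE 0.40). Foxj1, the forkhead factor of motile cilia in ependyma and choroid plexus, was at 127, 327 and 147 against 109, 150.1 and 134, a difference of -0.49 (SE 0.44). Only specimen 8 was above the MSC treated range for Foxj1, and without that library the difference was -0.08. Named astrocyte markers, 6 of 7, summed to 8964, 23837 and 3787 against 2919, 6408 and 3367, with none at 0, and their part in Sox1 and Sox2 was not tested.

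The 10 members of the up-regulated list had a median difference of 0.42, smaller in size than that of the down-regulated list, with a range from 0.29 to 0.78. Every one passed the filter on low counts. Their median stayed positive without each library in turn, between 0.31 and 0.49. Specimen 8 was the lowest library for 6 of them, and the highest was specimen 20 for 5, specimen 13 for 3, specimen 18 for 1 and specimen 10 for 1. Ebf3, a COE family factor of neuronal differentiation, was at 293, 285 and 298 against 395, 334 and 396, a difference of 0.35 (SE 0.08). It was the tightest of the 10 and the one whose groups did not overlap.

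The POU factors Pou3f1 and Pou3f3 act in Schwann cells and in brain, kidney and inner ear, respectively. Pou3f3 was at 429, 423 and 499 against 640.0, 622 and 481, a difference of 0.36 (SE 0.15), with specimen 10 just above specimen 20. Pou3f1 was at 92.7, 60.2 and 59.0 against 107, 77.6 and 108, a difference of 0.47 (SE 0.26), with specimen 6 above specimen 18. Foxp1, a forkhead factor of neurons and many other cells, was at 693, 858 and 1141 against 954, 1087 and 1192, a difference of 0.29 (SE 0.23), with specimen 10 above specimens 13 and 18. In these 3 genes 1 sound trauma library therefore lay inside the MSC treated range.

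Neural crest, mesoderm and axial patterning had 5 of 45 listed genes, Tbx15 lower and 4 higher. Pax1, a paired box factor of the sclerotome and thymus, was at 42.9, 217 and 61.6 against 299, 124 and 79.6, a difference of 0.78 (SE 0.90), and specimen 8 exceeded 2 of the MSC treated libraries. That difference was 0.25 without specimen 13, 0.31 without specimen 6 and 1.46 without specimen 8. Foxd3, a forkhead factor that maintains neural crest, was at 33.6, 24.9 and 23.2 against 38.4, 28.6 and 85.4, a difference of 0.74 (SE 0.49) that was 0.29 without specimen 20, its highest library. Tbx2 and Tbx3 are paralogous T-box repressors of limb, heart and otocyst. Tbx2 was at 479.8, 448 and 961 against 701, 881 and 869.8, a difference of 0.46 (SE 0.37), and sound trauma specimen 10 was the highest library of all. Tbx3 was at 261, 159 and 215 against 326, 219 and 282, a difference of 0.39 (SE 0.27). Hoxb4, an axial factor of hindbrain and spinal cord that was put in no role list, was at 34.8, 21.0 and 43.8 against 45.7, 36.8 and 67.0, a difference of 0.59 (SE 0.39).

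**Figure D4:**
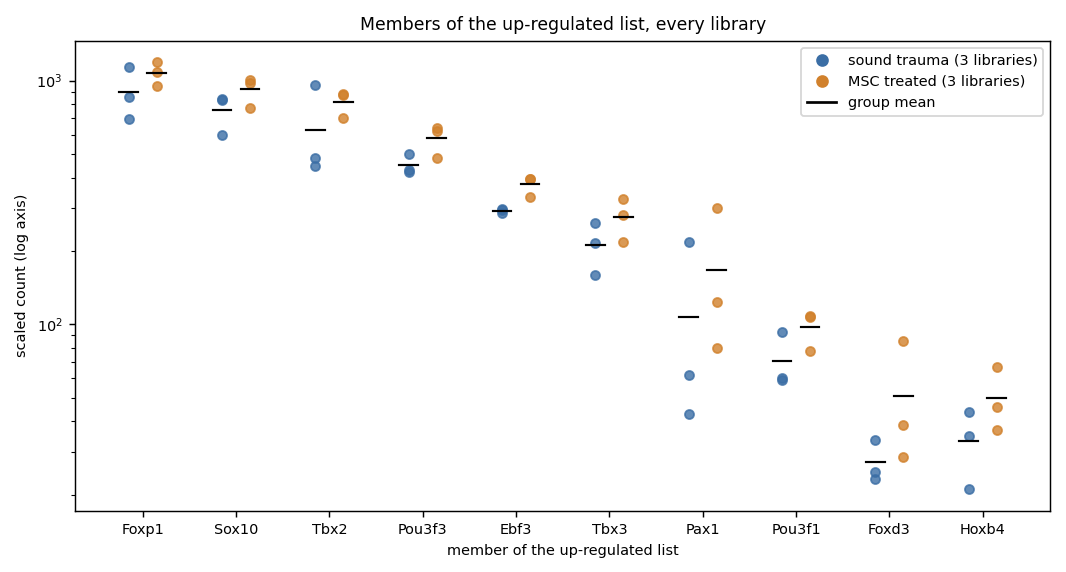
Scaled counts (log axis) of the 10 members of the up-regulated list in each library, with sound trauma in blue, MSC treated in orange and group means as black bars. The groups overlap for 9 genes and are apart for Ebf3, where the sound trauma libraries sit between 285 and 298 and the MSC treated ones between 334 and 396.

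Cochlear markers are given beside the up-regulated members. Named supporting cell and matrix markers, 3 of 6 and all up-regulated, summed to 1825, 1855 and 4331 against 3006, 3683 and 3313. Named hair cell markers, 3 of 10, summed to 291, 272 and 674 against 513, 637 and 488. Both sums were lowest in specimens 6 and 8 and highest in specimen 10. Most of the hair cell sum came from Otof, at 604 in specimen 10. Pou4f3 was highest in specimen 20 at 53.4 and Lhfpl5 in specimen 18 at 34.7. For Lhfpl5 specimen 10 (19.7) was below specimen 6 (27.8). Among the 10 members specimen 10 was instead below all MSC treated libraries for 5 and the highest library only for Tbx2. None of these markers was at 0 in any library. The Schwann cell list had 1 named gene of 6, Egr2, at 89.2, 95.6 and 225 against 136, 193 and 337, and the spiral ganglion list 2 of 8, which lay on opposite lists. Their sum was 3532, 1012 and 1220 against 1956, 1512 and 1195, most of it from the down-regulated sodium channel subunit gene Scn4b. The part of cochlear cell content in the up-regulated members was not tested.

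The members with the smallest differences on this scale were Hoxd8 at -0.12, Lhx3 at -0.22, Zic2 at -0.26 and Foxk2 at -0.28 among the down-regulated and Foxp1 and Sox10 at 0.29 among the up-regulated. Foxk2 was at 827, 816 and 583 against 695, 591 and 534, and specimen 10 was below specimens 13 and 18. Genes just outside the lists carry no name in the files and are not given. In the RefSeq order of genes, 2 neighbouring pairs had a member on each list: the down-regulated Nkx2-2 lies next to the up-regulated Pax1 with 0 protein-coding genes between them, and the up-regulated Tbx3 and the down-regulated Lhx5 have 2 between them.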

How the data were processed

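Expression was measured by RNA sequencing in 6 cochlear libraries. The authors trimmed and aligned reads with the AIR package to the C57BL/6NJ genome and deposited, for 41096 genes, a signal that is the read count times 1 TMM factor per library. The counting tool and its strand setting are not given in the sources used here. In the deposited signal 100% of values were whole multiples of the value of 1 read (within 0.01 reads), and reads were recovered from them. The symbols came from the authors' lists, whose NOISeq FDR, fold changes and FPKM columns were not used. Symbols were given for 3716 listed genes and not for 162.

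Members, role lists and marker lists were chosen with earlier results of these data known, and members are named except those whose results are withheld for evaluation and not reported here. Values in all libraries are written for the members whose highest library had at least 30 reads and for the up-regulated list, and the others are given by range. Groups followed the labels, with specimen numbers as names. The main test over the table was limma-trend (limma 3.58.1, R 4.3.3) on log2(scaled count + 1) for genes kept by filterByExpr (15970 of 25369 with at least 1 read), with Benjamini-Hochberg adjustment at 0.05, since the values are scaled and not counts. Alternatives were edgeR 4.0.16, DESeq2 1.42.0 and limma-voom on recovered reads, 3 other scalings, 2 other filters, pseudocounts of 0.1 and 10, and each library left out. The limma-trend and edgeR fits were tested on simulated counts, and no value given here rests on that run. The floor of 3 reads covers counting error only. Where nothing in the labels names separate animals, p-values measure the spread between these samples. Descriptions used Python 3.11.15 and pandas 2.3.3.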

Additional observations from a re-analysis of the deposited data

How the results depend on the processing

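No paired analysis was possible because the groups share no replicate numbers. The number of genes called over the whole table was 0 with all libraries and between 0 and 1 with 1 library left out, the 1 being a lower gene without specimen 10. It was also 0 under the other scalings, filters, pseudocounts and tests. At the unadjusted threshold the 107 lower and 269 higher genes of limma became 1083 and 1395 without specimen 10. Without any other library they lay between 50 and 142 lower and between 106 and 171 higher. The median difference of the neuronal differentiation list, -0.57, became 0.288 when at least 10 reads in every library were required, a filter that removes Neurod2, Neurod4 and Atoh7. The same filter, which drops members with low values, moved the medians of the down-regulated list to -0.55, the inhibitory and Purkinje list to -0.60, the midbrain and hindbrain list to -0.72 and the hypothalamus and pituitary list to -0.48. With 1 library left out in turn, the median of the neuronal differentiation list ranged from -0.66 to 0.10. That of the hypothalamus and pituitary list ranged from -1.59 to 0.25. The down-regulated list ranged from -2.06 to -0.86 and the up-regulated list from 0.31 to 0.49. Of 676 single-member values under alternatives, 674 moved by less than the within-group SD. Leaving out 1 of 3 libraries in a group cannot move a difference by that SD, and the filters leave a single gene's value as it was. The count of 674 is therefore largely fixed in advance and does not measure stability. The difference of Lhx1os became -4.89 with a pseudocount of 0.1 and that of Nkx2-2 became -1.22 with a pseudocount of 10. The sign changed in 17 values of 12 members, all on leaving out a library: 11 members without specimen 6, Zic2 without specimen 8, Hoxd8 without specimen 10, Lhx3 without specimen 13, 2 members without specimen 18, Hoxd8 among them, and Tbx15 without specimen 20. Depth limits the 15 members with a library at the floor of 3 reads, in which a lower level was not detectable, and 28 of 54 members had at least 10 reads in every library.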
